A study of Mus musculus with 8 samples.

Results

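Long treatment with the bile acid norUDCA was compared directly with short treatment in the liver of mice that lack Abcb4. The comparison rested on 4 of the 8 arrays of the study, chosen by their labels: 2 arrays of Abcb4 knockout (KO) mice given norUDCA for 4 weeks and 2 arrays of KO mice given it for 3 days. All animals were male FVB/N mice labelled as 3 months old, and the remaining arrays were of untreated KO liver (2 arrays) and untreated wild-type liver (WT, 2 arrays). Every treated animal carried the knockout, no treated WT was included, and neither dose nor route of norUDCA is given in the sources used here. The sample names inside the scanner files give 14 days for the arrays labelled 4 weeks. The labels were followed throughout, and this disagreement was not settled, so the longer duration may be read as either. Only the numbers in the titles set the arrays of a group apart. The p-values therefore reflect the spread among these arrays, which may be technical if they did not come from separate mice. Described are the 14156 of 33012 gene probes that had a signal over noise of 3 or more (called detected) on both arrays of at least 1 of the 2 treated groups. Of these, 138 probes of 137 genes could be named.

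Abcb4 is the canalicular floppase that moves phosphatidylcholine into bile. Without it, bile acids are not packed into mixed micelles and injure the bile ducts, which leads to ductular reaction, inflammation and scarring around the portal tracts. NorUDCA is a side-chain shortened relative of ursodeoxycholic acid that resists conjugation, is returned from the ducts to the hepatocytes and drives a bicarbonate-rich bile flow. Abcb4 itself was not analysed here, since no named probe stands for it, which leaves the knockout labels without that check.

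The arrays of the durations overlapped in detection but not in raw brightness. Between 42.6% and 47.9% of gene probes were detected on the 3-day arrays and 46.4% and 47.1% on the 4-week arrays. Before normalization, the median signal of gene probes was 122 and 127 on the 3-day arrays and 159 and 153 on the 4-week arrays, and the 75th percentile was 1146 and 945 against 1512 and 1386. Both 4-week arrays were thus brighter than both 3-day arrays. Quantile normalization removes such a gap from the arrays as a whole, and its part in single differences was not tested. Mup1, a major urinary protein made by hepatocytes, was detected on all 8 arrays, at 20.68 and 20.31 log2 signal after 3 days and 19.79 and 20.13 after 4 weeks. Other defining hepatocyte markers had no described probe with a name. Over the described probes, log2 signal correlated at r = 0.974 between the 3-day replicates and 0.983 between the 4-week replicates, and at 0.959 to 0.968 in the 4 pairs made of a 4-week and a 3-day array. The median absolute difference was 0.25 log2 between 3-day replicates, 0.24 between 4-week replicates and 0.31 to 0.33 between arrays of different duration. Arrays of different duration thus differed by little more than replicates did. The WT arrays stood apart in their positive control spots (medians of 1691 and 2062, against 6104 to 7913 on the 6 knockout arrays). The fit was therefore also run without them, on values still normalized over all 8 arrays. WT values below are levels beside the comparison, with the gap in control spots in view.

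No probe differed between 4 weeks and 3 days at an adjusted p under 0.05 (limma, Benjamini-Hochberg over 16728 tested probes, 0% called). The smallest adjusted p was 0.254. At an unadjusted p under 0.05 there were 1499 tested probes (8.96%), of which 820 (4.9%) were higher and 679 (4.06%) lower after 4 weeks. That split depends on the scaling: it was 894 and 444 from the deposited assay-normalized intensities, which raise the median difference of all tested probes from 0.03 to 0.16 log2, 662 and 512 with arrays scaled to the same median, and 862 and 884 with cyclic loess. Of the described probes, 747 were higher and 599 lower by that measure, together 9.51%. A count of 0 was not kept under each setting: it was 47 with a prior variance that follows the signal, 16 over probes detected on all 8 arrays, 11 with arrays scaled to the same median and 1 from the deposited assay-normalized intensities. With the WT arrays left out of the fit but not of the normalization it was again 0, with 1866 at an unadjusted p under 0.05. With the 4 treated arrays normalized and fitted alone it was also 0, with 1932. Without the first 4-week array the 1499 became 779.

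Differences of 2-fold or more were found for 1081 described probes (7.64%), 591 higher and 490 lower after 4 weeks. Differences of 4-fold or more were found for 119, 61 higher and 58 lower. These counts are a description. They include probes that met the detection rule only through 4 weeks (1313 described probes) or only through 3 days (654). That rule favours a difference toward the duration that met it. The share of all tested probes with such differences was not counted. The half-width of the 95% interval of a difference had a median of 0.70 log2. For a typical probe, a smaller difference thus did not reach an unadjusted p under 0.05 with 2 arrays a group. It is not a limit of detection, since larger differences did not pass after adjustment either. The share with an unadjusted p under 0.05 was 10.6% in the dimmest 3539 described probes by mean signal and 8.39% in the brightest 3539, while the median SE was 0.57 and 0.22 log2. The small-p probes were therefore spread over the whole range of signal.

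**Figure D1:**
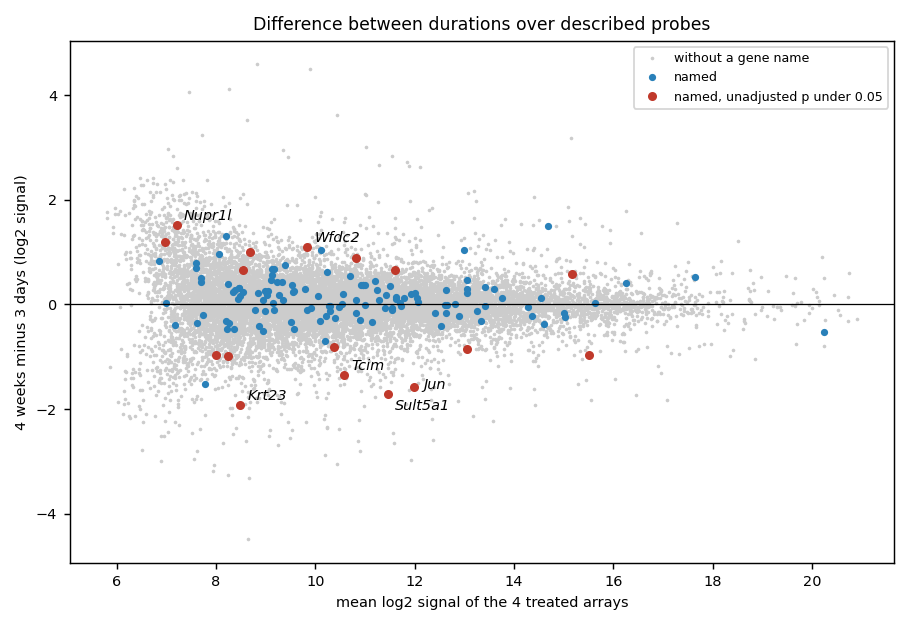
Difference between 4 weeks and 3 days (log2 signal, y axis) against the mean log2 signal of the 4 treated arrays (x axis) for the 14156 described probes. Grey points have no gene name, blue points are named, and red points are the 17 named probes with an unadjusted p under 0.05, which lie among the unnamed probes from faint to bright signal.

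Among the named probes, 17 probes of 16 genes had an unadjusted p under 0.05 (12.3%, against 8.96% of all tested probes), 8 higher and 9 lower after 4 weeks. Their adjusted p-values ran from 0.385 to 0.555, so none passed. Both 4-week arrays lay above both 3-day arrays for 47 named probes (25.3% of all tested probes did) and below them for 31 (20.7%), together 56.5%, against 46% of all tested probes. Without the first or the second 3-day array the 17 became 11 or 10, and without the first or the second 4-week array 9 or 8. Every adjusted p below is limma's, over all tested probes, and every ± is an SE of the fit with 2 arrays a group. Signals are compared between arrays for the same probe only, not between genes.

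Several genes of transcription and signalling stood among the named probes with a small p. Jun, a subunit of the AP-1 factor that is induced early by stress and growth signals, had the smallest. Its log2 signal was 12.93 and 12.63 on the 3-day arrays and 11.16 and 11.23 on the 4-week arrays. Untreated KO lay at 12.94 and 12.48, and WT at 11.70 and 11.07. The 3-day arrays thus lay at the level of untreated KO and the 4-week arrays at that of WT, with no overlap between the durations. The difference was -1.59 ± 0.29 log2 (SE, 3.00-fold lower after 4 weeks, 95% interval -2.31 to -0.86, unadjusted p = 0.00171, adjusted p = 0.385). With a prior variance that follows the signal, Jun was the only named gene that passed (adjusted p = 0.041), and in the other 22 alternatives the adjusted p stayed above the threshold, up to 0.999.

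Cebpb encodes C/EBPβ, a factor of hepatocytes that acts in the acute phase, regeneration and gluconeogenesis, and was measured by 2 probes. The brighter probe read 16.12 and 15.86 log2 after 3 days and 14.99 and 15.05 after 4 weeks. On the same probe KO read 14.54 and 14.54, and WT 15.51 and 16.20. The fainter probe read 13.59 and 13.37 after 3 days and 12.69 and 12.58 after 4 weeks. Both probes gave the highest treated level after 3 days and an intermediate level, between KO and the 3-day arrays, after 4 weeks. The differences between durations were -0.97 ± 0.27 (SE, adjusted p = 0.436) and -0.84 ± 0.25 (adjusted p = 0.442). Foxn3, the forkhead factor that was the other described member of the list of acute phase and hepatocyte factors, differed by 0.54 ± 0.26 (adjusted p = 0.617).

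The stretches just upstream of the start sites of Jun, Cebpb and Krt23 are shown because these genes, a stress factor, an acute-phase factor and the duct keratin described next, are those on which the account of named genes turns. The motifs were chosen after the expression values were seen, and no assay here measured a promoter. Each line gives the 150 bases before the RefSeq start site, 5′ to 3′, from the RefSeq promoter table of GRCm38.p6, at chr4:95052223-95052372 (minus strand) for Jun, chr2:167688765-167688914 (plus strand) for Cebpb and chr11:99493121-99493270 (minus strand) for Krt23. Capitals mark a match on either strand to TGACNTCA (an AP-1 and CREB type element) in Jun, to TGACG (the core of a CREB element, which overlaps TGACNTCA where N is G) in Cebpb, and to TTGCNNAA (a C/EBP type element) in Krt23.
Jun: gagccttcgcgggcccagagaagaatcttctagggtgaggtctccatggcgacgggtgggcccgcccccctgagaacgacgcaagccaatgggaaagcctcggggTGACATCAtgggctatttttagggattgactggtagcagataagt
Cebpb: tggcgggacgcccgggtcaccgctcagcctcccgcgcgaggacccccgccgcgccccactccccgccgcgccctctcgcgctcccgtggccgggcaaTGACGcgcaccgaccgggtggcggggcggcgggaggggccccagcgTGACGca
Krt23: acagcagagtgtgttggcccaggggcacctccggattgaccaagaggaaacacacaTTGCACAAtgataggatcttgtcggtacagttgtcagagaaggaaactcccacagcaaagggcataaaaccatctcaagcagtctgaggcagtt
Counted from the start site, the match begins at -45 in Jun, at -53 and -7 in Cebpb and at -94 in Krt23. Of 32851 such windows in the table, 5.7% hold TGACNTCA, 13.3% hold TGACG and 5.46% hold TTGCNNAA. The motif CCAAT, searched in the same way, is in 24.5% of windows and in that of Jun. A match describes the letters only and says nothing about binding in these livers.

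Tcim, which encodes a small regulator of Wnt signalling, read 11.34 and 11.16 log2 after 3 days and 9.85 and 9.94 after 4 weeks. KO (10.68 and 11.50) and WT (11.44 and 10.97) both overlapped the 3-day arrays, and both 4-week arrays lay below all 6 others. The difference was -1.35 ± 0.33 (SE, 2.56-fold lower, adjusted p = 0.395). Mapk7, which encodes the kinase ERK5, was 1.99-fold lower, at 8.56 and 8.92 after 3 days and 8.08 and 7.42 after 4 weeks, with detection on only 1 of the 2 4-week arrays (adjusted p = 0.540). Nupr1l, a relative of the stress-induced nuclear protein Nupr1, was detected on both 4-week arrays (8.01 and 7.92) and on neither 3-day array (6.40 and 6.51). Its estimate was 2.84-fold higher after 4 weeks (95% interval 0.68 to 2.34 log2, adjusted p = 0.385). Taking for each 3-day array the higher of its own signal and the lowest detected signal left the estimate at 2.84-fold. That value is therefore not a lower bound. KO arrays did not detect Nupr1l (7.05 and 6.98), and of the WT arrays (6.61 and 5.62) only the first did. Pou3f3, a POU homeobox factor of the nervous system and kidney, was faint, with a mean of 6.37 after 3 days, where 1 array detected it, and arrays at 7.45 and 7.68 after 4 weeks (1.19 ± 0.48, adjusted p = 0.554). Stat5a and Stat5b, which carry growth hormone signals in liver, differed by 0.18 ± 0.50 and 0.38 ± 0.32 and did not reach an unadjusted p under 0.05. They are on none of the lists and were added outside the rules for naming genes. Fxr2, an RNA-binding protein of the fragile X family, had a large difference with widely spread 3-day arrays, 9.41 and 7.65 against 6.96 and 7.07 (-1.52 ± 0.73, adjusted p = 0.614).

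**Figure D2:**
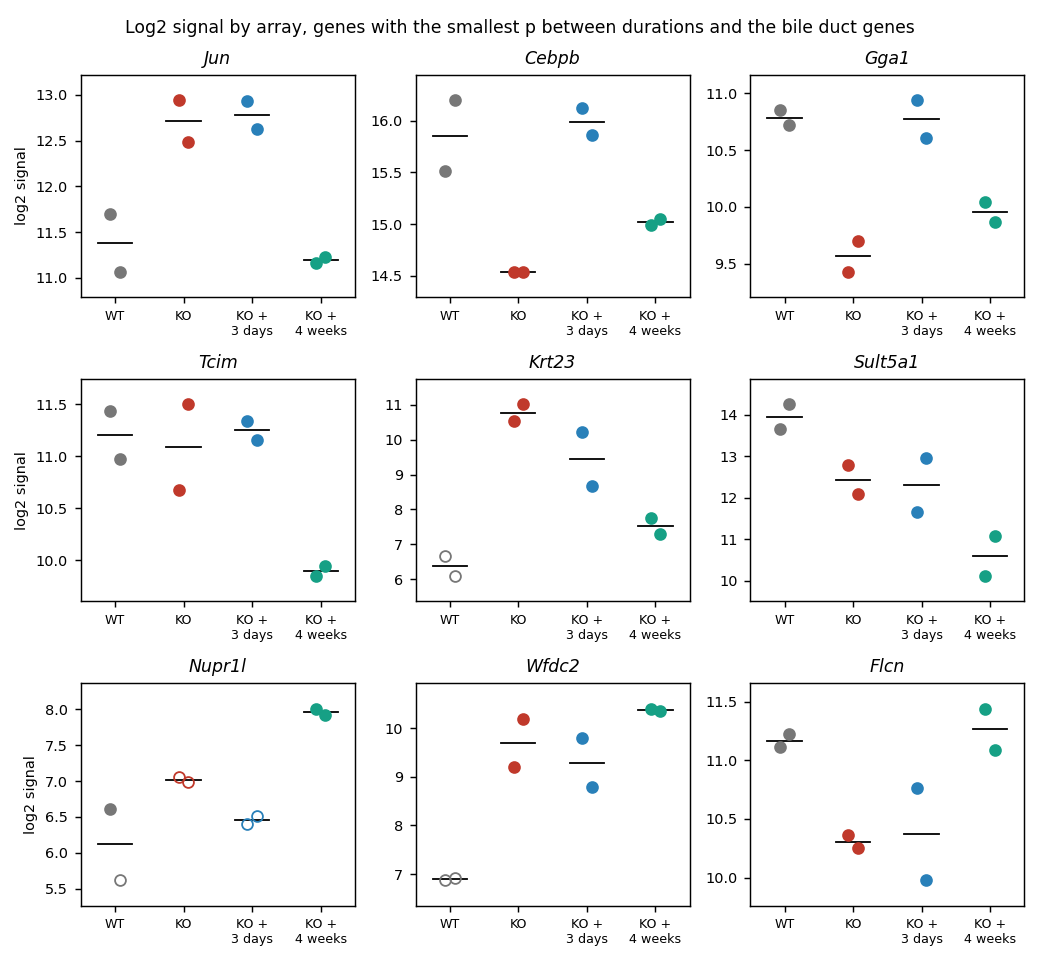
Log2 signal (y axis) of 9 genes on each of the 8 arrays, by group (x axis), with a bar at each group mean and open points where the array did not detect the probe. Jun and Tcim are lowest after 4 weeks among the knockout groups, Cebpb and Gga1 are highest after 3 days among them, and the group mean of Krt23 is lower after 3 days than in KO and lower again after 4 weeks.

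The bile duct genes differed in opposite directions between the durations, and neither passed. Krt23, a keratin of reactive ducts, read 10.23 and 8.67 log2 after 3 days and 7.76 and 7.29 after 4 weeks, against 10.53 and 11.01 in KO. WT arrays did not detect it. The 2 durations did not overlap, though the 3-day arrays had an SD of 1.10, and the difference was -1.92 ± 0.55 (SE, 3.79-fold lower after 4 weeks, adjusted p = 0.436). Wfdc2, a secreted protease-inhibitor-like protein of epithelia, read 9.79 and 8.78 after 3 days and 10.40 and 10.35 after 4 weeks. KO read 9.20 and 10.19, and WT arrays did not detect it. Its difference was 1.09 ± 0.44 (2.13-fold higher, 95% interval 0.00 to 2.17, adjusted p = 0.555). These were the only 2 described members of the list of duct markers, 1 higher and 1 lower by unadjusted p, with no member past the adjusted threshold. In bulk liver, fewer cells of a type and less RNA per cell cannot be told apart.

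The remaining named probes with a small p came from genes of varied roles. Gga1, a Golgi adaptor that sorts cargo toward endosomes, read 10.94 and 10.61 log2 after 3 days and 10.04 and 9.87 after 4 weeks, with KO at 9.43 and 9.70 and WT at 10.85 and 10.72. As with Cebpb, the 3-day arrays lay at the WT level and the 4-week arrays between them and KO (-0.82 ± 0.22, adjusted p = 0.423). Flcn encodes folliculin, which controls nutrient signalling at the lysosome, and read 10.76 and 9.98 after 3 days and 11.44 and 11.09 after 4 weeks (0.89 ± 0.30, adjusted p = 0.486). Its 4-week arrays lay near WT (11.11 and 11.22) and its 3-day arrays spread around KO (10.36 and 10.25). Rnaset2b, a lysosomal ribonuclease whose probe may also read its near-identical copy Rnaset2a, differed by only 0.58 ± 0.18 but with tight replicates, 14.83 and 14.91 against 15.46 and 15.43 (adjusted p = 0.461). Cd99, a surface glycoprotein, differed by 0.66 ± 0.25 (adjusted p = 0.516). The mitochondrial valyl-tRNA synthetase Vars2 differed by 0.66 ± 0.25 (adjusted p = 0.523), and the unannotated transcript C130026I21Rik by 1.01 ± 0.28 (adjusted p = 0.436).

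Pdxp, a phosphatase of pyridoxal phosphate, was undetected in WT and untreated KO and detected on all 4 treated arrays. It read 8.27 and 8.71 log2 after 3 days and 7.34 and 7.71 after 4 weeks (-0.96 ± 0.29, 1.95-fold lower, adjusted p = 0.450). Tcte3, a dynein light chain gene with the same pattern of detection, read 8.62 and 8.58 after 3 days and 8.39 and 7.88 after 4 weeks, and did not reach an unadjusted p under 0.05 (-0.47 ± 0.26, adjusted p = 0.658). The m6A demethylase Alkbh5 differed by -0.41 ± 0.21 (adjusted p = 0.630). For these 3 genes the 4-week arrays lay below the 3-day arrays without overlap.

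**Figure D3:**
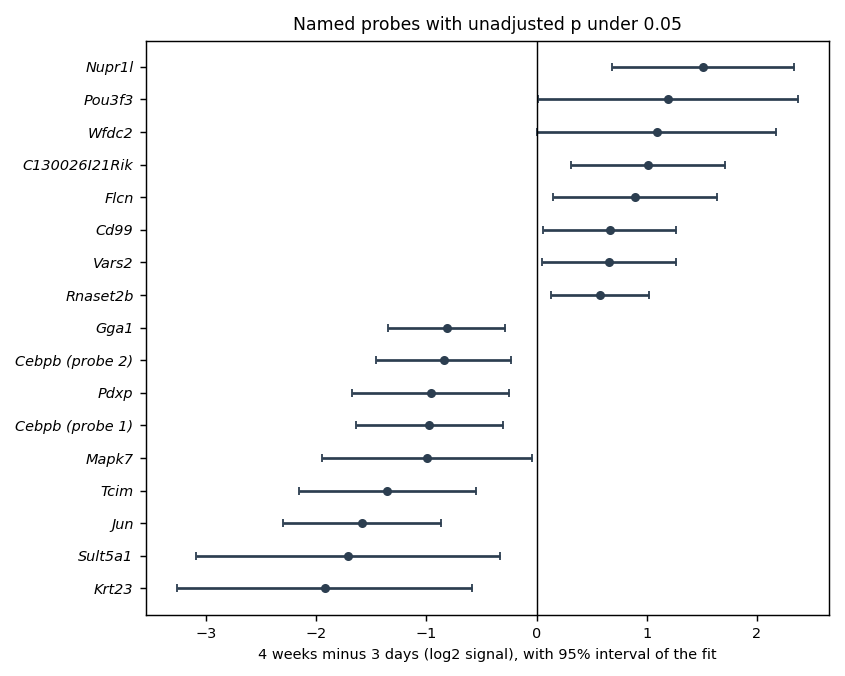
Difference between 4 weeks and 3 days (x axis, log2 signal) with its 95% interval for the 17 named probes with an unadjusted p under 0.05. The 8 higher probes run from Rnaset2b at 0.58 to Nupr1l at 1.51, and the 9 lower probes from Gga1 at -0.82 to Krt23 at -1.92. None passed after adjustment.

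Each duration was also set against the same 2 untreated KO arrays, so these values share their control and are given side by side only. No named described probe passed against KO at either duration (limma, adjusted p of at least 0.053 after 3 days and 0.091 after 4 weeks), where 0.233% and 0.0478% of all tested probes were called. Jun differed from KO by 0.07 after 3 days and by -1.52 after 4 weeks. Tcim gave 0.16 and -1.20, Sult5a1 -0.13 and -1.84, and Flcn 0.07 and 0.96. These 4 genes thus lay no more than 0.16 log2 from KO after 3 days and 0.96 log2 or more from it after 4 weeks. Cebpb lay farther from KO after the shorter treatment, at 1.45 after 3 days and 0.48 after 4 weeks on its brighter probe. Gga1 gave 1.21 and 0.39, Pdxp 2.20 and 1.24, and Rnaset2b -0.74 and -0.16. Krt23 gave -1.32 and -3.24, lower than KO at both durations. The direct test between durations, given above, is the test of whether the 2 departures from KO differ, and none passed.

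Against WT, whose arrays had dimmer control spots, 5.78% of all tested probes were called after 3 days, 2.27% after 4 weeks and 1.13% in untreated KO. Of the named probes, 5 were called higher and 1 lower after 3 days, 4 higher and 2 lower after 4 weeks, and 1 higher and 1 lower in KO. Dio1 fell at all 3, by 4.63 log2 after 3 days, 4.70 after 4 weeks and 2.14 in KO. Plin3 rose by 1.92 and 2.22 log2 after 3 days and 4 weeks, while Aldh3a2 (1.23) and Sult5a1 (-3.35) passed after 4 weeks and not after 3 days. Krt23 passed in KO and after 3 days (adjusted p = 0.035 and 0.038) and not after 4 weeks (adjusted p = 0.298), Wfdc2 and Tcte3 passed at both durations, and Pdxp after 3 days. A gene past the threshold at a single duration is not thereby shown to differ between them, and the direct tests did not pass.

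**Figure D4:**
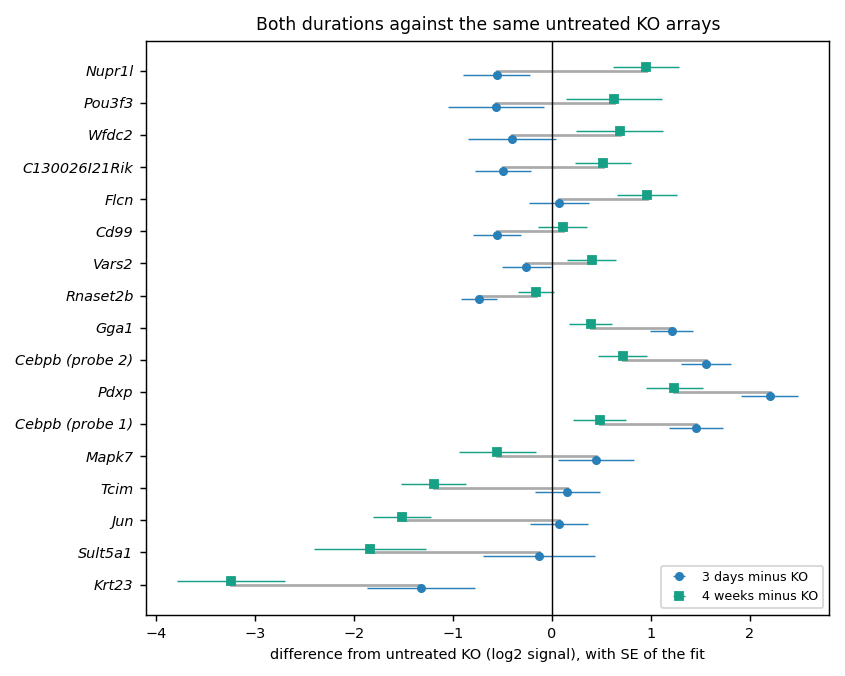
Log2 difference from untreated KO after 3 days (circles) and 4 weeks (squares), with the SE of the fit, for the 17 named probes with an unadjusted p under 0.05. Both series use the same KO arrays. Jun, Tcim and Sult5a1 sit near 0 after 3 days and below -1 after 4 weeks, whereas Cebpb, Gga1 and Pdxp sit farthest above 0 after 3 days.

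Of the described genes on the metabolic lists, Sult5a1 had an unadjusted p under 0.05 between durations and the others did not. Sult5a1, a cytosolic sulfotransferase of the conjugation list, read 11.65 and 12.97 log2 after 3 days and 10.12 and 11.07 after 4 weeks, with KO at 12.78 and 12.09 and WT at 13.66 and 14.25. The durations did not overlap, but the SD between replicates was 0.93 after 3 days and 0.67 after 4 weeks (-1.71 ± 0.56, 3.27-fold lower, adjusted p = 0.475). Dio1, the deiodinase that activates thyroxine, read 10.03 and 9.87 after 3 days and 9.84 and 9.93 after 4 weeks, all below KO at 12.13 and 12.75. Its difference between durations had a 95% interval of -0.76 to 0.64. G6pc, the phosphatase that releases free glucose, read 14.69 and 13.92 against 14.59 and 13.94, with an interval of -0.92 to 0.84. Pemt, which makes phosphatidylcholine from phosphatidylethanolamine, read 15.57 and 15.66 against 15.77 and 15.52, with an interval of -0.43 to 0.49. These intervals bound the differences, and do not show that the durations act alike.

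Aldh3a2, the fatty aldehyde dehydrogenase of the fatty acid oxidation list, read 12.36 and 12.03 log2 in KO, 12.86 and 12.78 after 3 days and 13.35 and 13.23 after 4 weeks. The difference between durations was 0.47 ± 0.20 (1.39-fold, unadjusted p = 0.055, adjusted p = 0.566). Plin3, which coats lipid droplets, read 12.93 and 12.85 after 3 days and 13.22 and 13.16 after 4 weeks (0.30 ± 0.31, adjusted p = 0.865). The renal and hepatic cation exporter Slc47a1 differed by 0.29 ± 0.20, and the mitochondrial dehydrogenase Hsd17b10 by -0.38 ± 0.28. Mup1 differed by -0.54 ± 0.30 with no overlap (adjusted p = 0.678). The lists of bile acid synthesis and of bile acid transport had no named probe. Hsd3b4 and Fgf21 fell outside the described probes, since neither was detected on both arrays of either duration: Hsd3b4, a liver hydroxysteroid dehydrogenase, read 6.01 and 8.67 after 3 days and 5.62 and 6.17 after 4 weeks (14.28 and 11.23 in KO), and the fasting hormone Fgf21 6.98 and 5.14 against 6.17 and 6.70.

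The described genes on the immune lists had a higher mean after 4 weeks than after 3 days, but none passed the test. The lists of chemokines and cytokines, histocompatibility genes and macrophage markers had 8 described members, and 8 of 8 had a positive difference, as did 58.7% of named and 53.6% of described probes. Their median was 0.45 log2, against 0.03 over all tested probes. The count was also 8 with arrays scaled to the same median, with cyclic loess and from the assay-normalized intensities, though in the last, where the median of all tested probes was 0.16, 7 lay above that median. It was 7 without the first 3-day array and 7 without the second 4-week array, where Ccl21a had a negative difference (-0.09 and -0.80). Of the 8, 0 reached an unadjusted p under 0.05 (limma). Against untreated KO, all 8 had a lower mean after 3 days, from -0.30 log2 (Tnfaip8l1) to -3.02 (Ccl21b). After 4 weeks they lay between -1.71 (Ccl21b) and 0.26 (Bcl2a1b) from KO. At 4 weeks Bcl2a1b, Tnfaip8l1 and H2-Q7 (0.05) lay above KO and the others below it. Both comparisons use the same 3-day arrays, so a low 3-day value moves both, and no link between them can be read from these values. Bcl2a1b, an anti-apoptotic gene of myeloid cells, read 9.66 and 9.53 after 3 days and 10.74 and 10.51 after 4 weeks (1.03 ± 0.55, adjusted p = 0.649). The class I gene H2-Q7 read 17.42 and 17.35 against 18.00 and 17.82 (0.53 ± 0.27, adjusted p = 0.637), and H2-Q8 differed by 0.37 ± 0.31. These paralogs may share signal. Tnfsf13, the B-cell cytokine APRIL, differed by 0.56 ± 0.30 and Ccl19, a chemokine of lymphoid tissue, by 0.27 ± 0.18. Ccl21a and Ccl21b, near-identical lymphoid chemokine genes, differed by 0.10 ± 0.86 and 1.31 ± 1.17. The arrays of Ccl21a overlapped between the durations (8.19 and 8.58 after 3 days, 7.58 and 9.40 after 4 weeks). The 4-week arrays of Ccl21b were at 7.90 and 9.80. Another Ccl21b probe, too rarely detected to be described, read 8.67 and 8.32 after 3 days and 7.41 and 9.50 after 4 weeks, and so gave no such direction. Tnfaip8l1, placed on its list by its symbol, differed by 0.38 ± 0.54, with overlapping arrays (9.68 and 9.01 against 9.80 and 9.65). Tlr7, an RNA-sensing receptor of immune cells that is on none of the lists, differed in the other direction, by -0.20 ± 0.66, with overlapping arrays. Tlr7 was chosen after its values were seen. The mean signal of a haemoglobin probe was also higher after 4 weeks than after 3 days, without passing the test. Hba-a1, the only described blood marker, read 13.63 and 14.24 after 3 days and 15.43 and 15.43 after 4 weeks. Untreated KO read 15.93 and 15.63, and WT 19.04 and 16.17 (SD 2.03), so WT replicates lay far apart. The difference between durations was 2.83-fold (95% interval -0.63 to 3.63 log2, adjusted p = 0.685). The part of blood in the immune differences was not tested. The lists of stellate cell and endothelial markers had no named probe, and the lymphocyte list no tested probe.

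**Figure D5:**
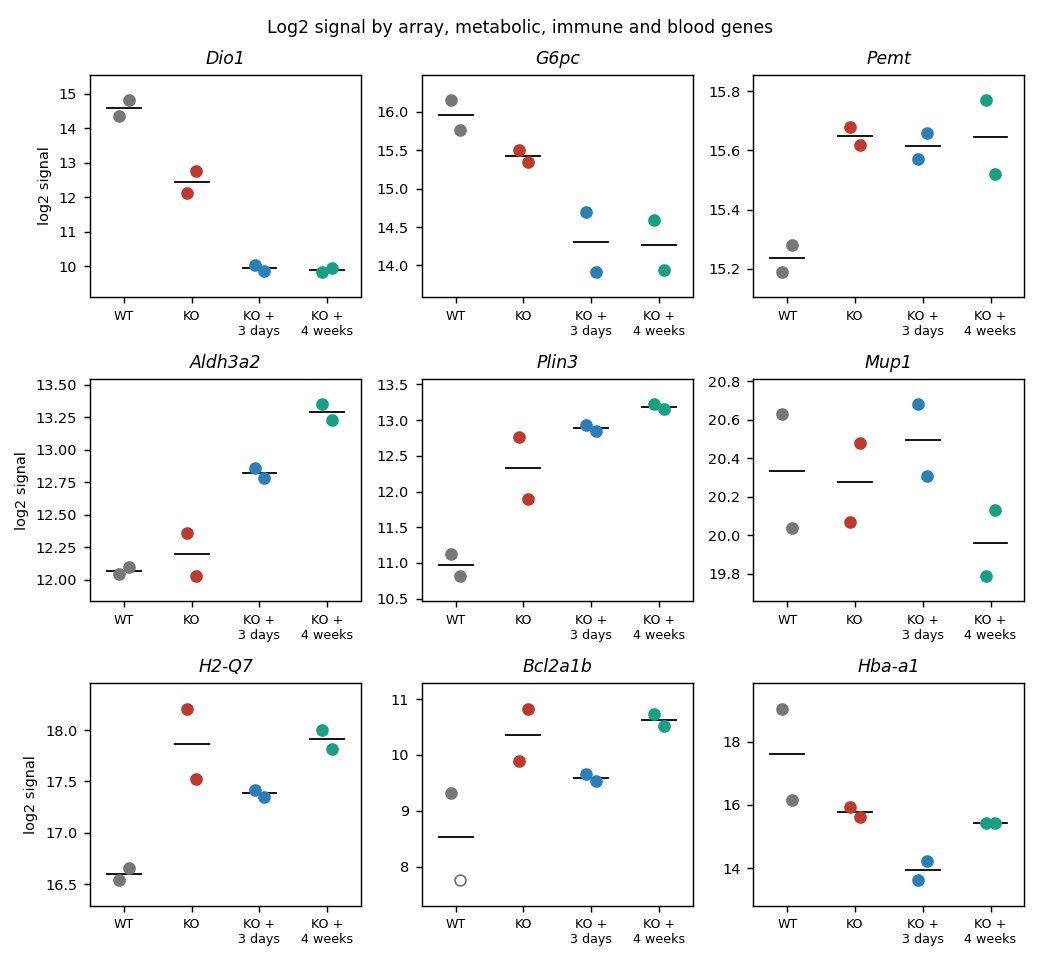
Log2 signal (y axis) of 9 list genes on each of the 8 arrays, by group (x axis), with a bar at each group mean and an open point where the array did not detect the probe. Dio1, G6pc and Pemt have overlapping 3-day and 4-week arrays, whereas the 4-week arrays of Aldh3a2, Plin3, H2-Q7, Bcl2a1b and Hba-a1 lie above the 3-day arrays.

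Few named genes were detected at a single duration. Of the 28859 probes left after the quality flags, 354 were detected on both 4-week arrays and neither 3-day array. Another 171 were detected on both 3-day arrays and neither 4-week array. Detection rests on the scanner's score, which normalization does not change, and both 4-week arrays were brighter before normalization. The part of that gap in this split was not tested. Beside Nupr1l, the named ones were Ramp3, an accessory protein of the calcitonin receptor family (6.88 and 7.65 log2 after 4 weeks against 6.92 and 5.95), and Elf4, an ETS factor of blood cells (7.21 and 7.54 after 3 days against 6.77 and 7.20). The arrays of Ramp3 overlapped between the durations (0.83 ± 0.51, adjusted p = 0.694), and those of Elf4 nearly touched (-0.39 ± 0.55, adjusted p = 0.914). Over all such probes, the median difference was 1.02 log2 for the 354, of which 111 had an unadjusted p under 0.05, and -1.23 log2 for the 171, of which 64 did. Being detected at a single duration chose these probes for a difference, so the medians are a description.

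At the other end, the 5 genes with the smallest differences among those detected on all 4 treated arrays were Mapk1ip1, Gjd3, Fam83g, Tcp10b and Ube3a, of which Ube3a had the largest, at -0.01 log2. Fam83g read 12.59 and 12.73 after 3 days and 12.67 and 12.64 after 4 weeks, with a 95% interval of -0.45 to 0.44. The ubiquitin ligase gene Ube3a had an interval of -0.50 to 0.47. Tcp10b, with an interval of -1.85 to 1.82, shows that a small mean difference can come with a wide error. Of the 138 named probes, 55 had an interval inside 2-fold in both directions and 5 inside 1.5-fold.

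Among probes without a gene name, the 2 higher and the 2 lower with the smallest p are given, none of which passed. The probe with the design identifier mCG6335.2 read 13.29 and 13.45 log2 after 3 days and 15.43 and 15.40 after 4 weeks, with KO at 15.85 and 15.87 and WT at 16.29 and 16.61. Only the 3-day arrays were low (2.04 ± 0.20, 4.13-fold, adjusted p = 0.254). AK019791.1 was detected on both 4-week arrays (7.70 and 8.03) and on no other array. It was 4.44-fold higher than after 3 days (adjusted p = 0.254). With each 3-day array taken at no less than its lowest detected signal, the estimate was 3.95-fold. mCG126623.1 read 11.76 and 11.63 after 3 days and 10.35 and 10.39 after 4 weeks, with KO at 10.22 and 10.25 (-1.33 ± 0.17, adjusted p = 0.315). mCG114883.1 read 12.80 and 11.79 after 3 days and 9.23 and 9.75 after 4 weeks, with KO at 9.57 and 9.89 (-2.81 ± 0.38, 6.99-fold lower, adjusted p = 0.315). In 3 of these 4 probes the 4-week arrays lay nearer to untreated KO than the 3-day arrays did. The probes were chosen for their difference between durations on these same arrays. The share over all tested probes was not counted, so this is a description of 4 probes only.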

How the data were processed

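Liver RNA of 8 samples was measured on Applied Biosystems chemiluminescent arrays, 1 array a sample, in 4 groups of 2. The scanner files hold, per the file headers, a signal intensity, an assay-normalized intensity and a signal-over-noise score (S_N) for each spot. The image software is "not given in the sources used here". The deposited value table holds the authors' assay-normalized intensity, equal to the scanner files' within 0.06 for 100% of values. Of 33012 gene probes, 4153 with a quality flag of 5000 or more were left out. Signal intensities of the other 28859 were taken to log2, quantile normalized and fitted with limma 3.58.1 (R 4.3.3) with 1 mean per group over all 8 arrays. The 16728 probes with S_N of 3 or more on at least 2 arrays were tested and adjusted by Benjamini-Hochberg. The fit had 4 residual degrees of freedom, and its precision is limited by how few arrays there are. It was tested on simulated data.

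Probes carry a Celera (27930), GenBank (4565) or RefSeq (517) identifier. Matching through the RefSeq gene table named 316 probes of 310 genes, 311 by accession and 5 by synonym, of which 163 were tested and 138 described, so most genes are not reported by name. Named in the text are described genes with an unadjusted p under 0.05, those detected at a single duration, list members, the 10 with the largest non-overlapping differences and the 5 with the smallest differences among those detected on all 4 treated arrays. Stat5a, Stat5b and Tlr7 were added outside these rules. The members and the 33 lists were chosen with earlier results of these data known. In all, 23 alternatives were run.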

Additional observations from a re-analysis of the deposited data

Results flagged for a closer look

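The 129 positive control spots of each array, which enter none of the comparisons, had a lower signal on the WT arrays. Their median signal intensity was 1691 and 2062 in WT, 7913 and 6653 in untreated KO, 6634 and 6104 after 3 days and 7003 and 6269 after 4 weeks. The lowest treated array lay 2.96 times above the highest WT array. The 4 treated arrays overlapped in this measure, so it does not separate the durations. Its part in differences from WT was not tested.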

How the results depend on the processing

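The count of probes past the adjusted threshold was 0, and became 16 (14 higher, 2 lower) over probes detected on all 8 arrays, 11 (8 higher, 3 lower) after scaling each array to a common median, 1 from the deposited assay-normalized intensities and 47 (29 higher, 18 lower) with a trended prior variance. Jun was the only named probe among the 47. Leaving out each array in turn gave 0 called probes throughout, 779 to 1866 at an unadjusted p under 0.05, and 8 to 21 named probes against 17. The 17 became 11 without a filter on dim probes and 11 over probes detected on all 8 arrays. Described probes with non-overlapping durations made up 51.87% from the assay-normalized intensities (5409 higher, 1934 lower) against 49.0% (3824 and 3107). The cause of these shifts was not tested. All 17 named probes kept their direction in every alternative in which they were tested. This was largely fixed in advance. Their durations did not overlap, so leaving out an array could not turn the direction. Alternatives that change only the fit or the tested probes reuse the same difference. With the replicate number as a replicate block, 0 probes were called, 1440 had an unadjusted p under 0.05 and 15 named probes did. Same-numbered arrays of the 3-day and 4-week groups did not deviate together (r = -0.017 across probes, which are not independent, and -0.037 to 0.033 over all pairs of groups). The labels give no pairing beyond the number, and whether such arrays shared a day or batch was not tested.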

Other observations

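Probes designed from GenBank sequences leaned to one side. Of 895 described probes of this kind, 62 were higher and 22 lower after 4 weeks at an unadjusted p under 0.05, whereas the 13058 Celera probes gave 669 and 565 and the 203 RefSeq probes 16 and 12. The shares with an unadjusted p under 0.05 were 9.39%, 9.45% and 13.8%. The median SE was 0.44 log2 for GenBank probes and 0.28 for Celera probes. Whether the lean differs between the kinds of probe was not tested.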
